A study of Mus musculus with 6 samples.

Results

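The transition from the fully grown oocyte to the 4-cell embryo was followed in wild-type mice, using the 3 wild-type libraries of the 6 in the series: 2 of germinal vesicle (GV) oocytes and 1 of 4-cell embryos. The other 3 libraries hold the same stages from YAP-/- females of the same background, with oocytes and embryos labelled Yap1-deleted, and are used below only beside the wild-type values. Each wild-type library was made from 60 oocytes or embryos of females of ICR background, 21 to 23 days old, that had received PMSG and hCG, and the females were mated where embryos were collected. GV oocytes are arrested in the first meiotic prophase, with an intact nucleus. The source field of the 4-cell sample names a GV oocyte, while its title and stage field name a 4-cell embryo, and the title was used. Oocyte genes such as Gdf9 and Zp3 were high in both GV libraries and low in the library labelled 4-cell, where cleavage-stage genes such as Crxos1 and Obox6 were high. The labels give no genotype for the males, and do not say how many females were pooled.

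A growing oocyte transcribes heavily and stores the messenger RNA, then falls silent before it is ovulated. Maturation, fertilisation and the first cleavages run largely on this store, which is cleared while the embryo starts to transcribe its own genome, in the mouse mainly at the 2-cell stage. Transcripts can therefore be grouped as maternal and cleared, maternal and replaced, or newly made.

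All genes of the deposited tables were considered, as FPKM (fragments mapped to a transcript, scaled to its length and to the library's size) summed per gene symbol. Of 23308 symbols, 11464 (49.2%) averaged 1 FPKM or more across the 3 wild-type libraries and were compared as log2(FPKM + 1). Myh2, with values of 0.452, 2.55 and 0 FPKM in GV library 1, GV library 2 and the 4-cell library, was just inside this limit, and Zfp101, with 0.762, 0.428 and 1.81 FPKM, was just outside it. A gene was classed as lost when the 4-cell value was at least 4-fold below each GV library on this scale, as gained when it was at least 4-fold above each, and as stable when it was within 1.5-fold of each. Any other gene was intermediate. A difference is the 4-cell value minus the mean of the GV values, so that a negative number is lower in the embryo. FPKM is a share of a library, and the amount of RNA in an oocyte or embryo was not measured.

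Each class held many genes. There were 1702 lost genes (14.8% of those tested), 1920 gained (16.7%), 1029 stable (8.98%) and 6813 intermediate (59.4%). Of the gained genes, 905 had a GV mean under 1 FPKM and passed the filter only through the 4-cell library. In turn, 706 lost genes had a 4-cell value under 1 FPKM. Among the 1289 tested genes with a GV mean under 1 FPKM, 70.2% were gained. The share was 16.0%, 5.42% and 2.49% for GV means of 1 to 10, 10 to 100 and at least 100 FPKM. The median difference was −3.17 for lost genes and 3.19 for gained genes, against −0.12 for all tested genes. The lost genes held 37.3% and 37.7% of the summed FPKM of tested genes in the GV libraries and 1.70% in the 4-cell library. The gained genes held 3.47% and 3.40% in the GV libraries and 38.7% in the 4-cell library. The stable genes held between 6.19% and 7.76% in every library.

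**Figure D1:**
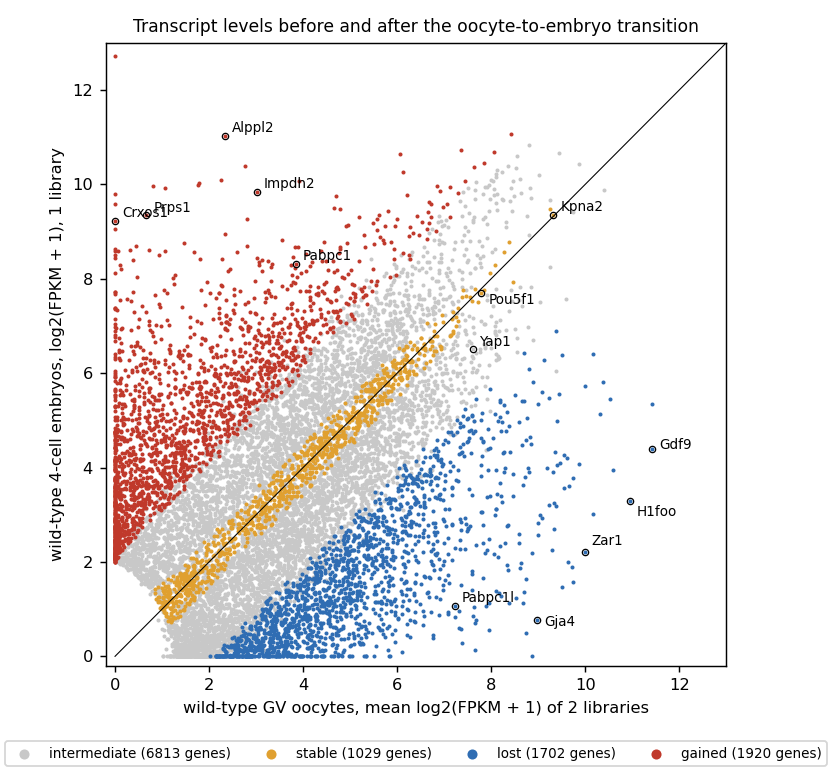
Level of each of the 11464 tested genes in wild-type 4-cell embryos (y axis, 1 library) against the mean of both wild-type GV libraries (x axis), both as log2(FPKM + 1), coloured by size class, with equal levels on the line. Gdf9, H1foo, Zar1 and Gja4 lie at the lower right, Crxos1 and Prps1 at the upper left, and Kpna2 and Pou5f1 on the line.

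**Figure D2:**
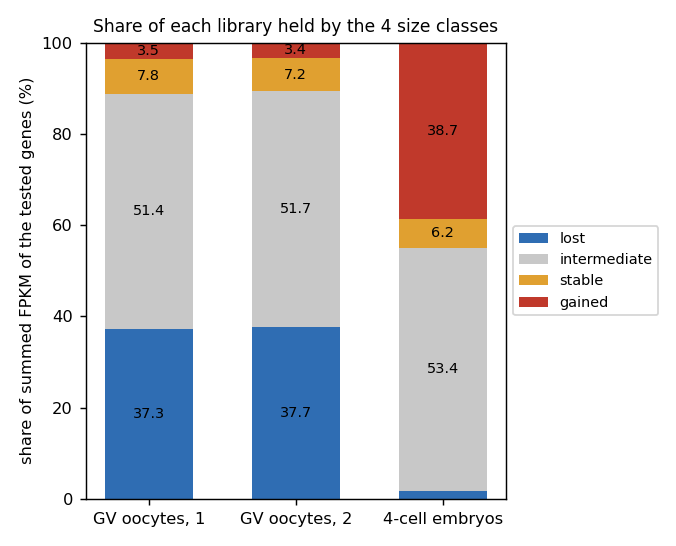
Share of the summed FPKM of tested genes (y axis, percent) held by lost, intermediate, stable and gained genes in each wild-type library (x axis). The lost genes go from 37.3% and 37.7% to 1.70% (too thin to be numbered), and the gained genes from 3.47% and 3.40% to 38.7%.

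Loss was most frequent among the most abundant oocyte transcripts. Of genes with a GV mean of at least 100 FPKM, 39.6% of 762 were lost, against 22.5% of 4816 genes between 10 and 100 FPKM and 6.92% of 4597 genes between 1 and 10 FPKM. Among the 100 genes with the highest GV mean, 70 were lost, 28 intermediate, 2 stable and 0 gained. Among the 100 with the highest 4-cell value, 44 were gained, 54 intermediate, 2 stable and 0 lost. The lists shared 16 genes, among them Ubb, a ubiquitin gene with 1057, 1739 and 937 FPKM in GV library 1, GV library 2 and the 4-cell library, and Eef1a1, an elongation factor with 1482, 584 and 1375 FPKM. The pseudocount of 1 FPKM limits how far a low gene can be lost, so the gradient is partly set by the scale.

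The spread between the GV libraries was wide for some genes. They were at least 2-fold apart for 2440 genes (21.3%) and at least 4-fold apart for 406 (3.54%), while 7838 genes (68.4%) were at least 2-fold from the GV mean in the embryo. The 4-cell value lay between the GV values for 1244 genes (10.9%). Summed FPKM was 366398 and 370735 in the GV libraries and 441516 in the 4-cell library, and 10063 to 10581 genes reached 1 FPKM. Fragment counts are unknown. From the deposited bounds of 2110 genes, the depth of GV library 2 was about 0.481 of that of GV library 1, and that of the 4-cell library 0.895.

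**Figure D3:**
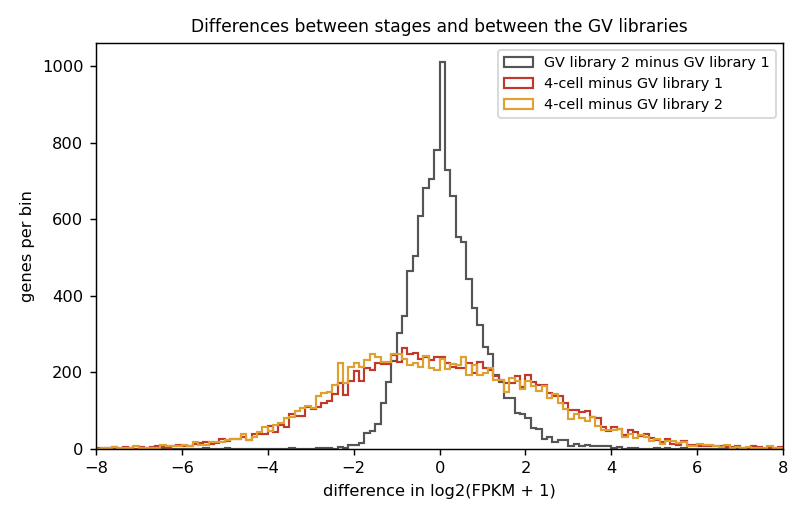
Number of tested genes (y axis, per bin) by difference in log2(FPKM + 1) (x axis) between the GV libraries and between the 4-cell library and each GV library. The difference between the GV libraries is narrow, with 21.3% of genes at least 2-fold apart, and both stage differences are broad.

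The stage difference was tested for each gene with limma-trend on the 3 libraries, with Benjamini-Hochberg adjustment over the 11464 genes and a threshold of 0.05. This test has 1 residual degree of freedom and takes all of its spread from the GV libraries, with the lone 4-cell library assumed to vary as they do. It called 1404 genes higher in the embryo (12.2% of those tested) and 933 lower (8.14%), with 5283 genes at an unadjusted p under 0.05. "Rose" and "fell" are used below for these genes only. Counts of list members that rose or fell are to be read beside the shares of 12.2% and 8.14%. Counts of gained and lost members are to be read beside 16.7% and 14.8%. The calls depend on the fit: without the mean-variance trend there were 0 calls with 5282 genes at an unadjusted p under 0.05, and with all 6 libraries in the fit there were 4474. The 270 genes listed at 0 in both GV libraries show no spread and all were called higher, and without them, an alternative chosen after seeing the data, 2380 genes were called higher and 2714 lower. No test gives the spread between 4-cell samples, and an exact permutation test of 1 library against 2 cannot give a p below 0.333. The labels do not say that the GV libraries came from separate animals, so the spread may be technical.

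Reference promoters of lost genes held fewer CpG sites than those of stable genes. RefSeq promoter windows on GRCm38.p6, from 250 bases before the start to 50 after it, were matched by symbol for 80.4% of tested genes, 80.5% of lost genes and 81.8% of stable genes. The median observed over expected CpG ratio was 0.646 for lost genes, 0.801 for stable genes and 0.761 for all tested genes. A ratio under 0.4 was found for 26.5% of lost genes, 7.13% of stable genes and 13.9% of all tested genes. The difference was also seen among abundant oocyte transcripts: with a GV mean of at least 100 FPKM, 34.8% of the 250 lost genes with a window and 8.11% of the 37 stable genes with one had such a ratio. For gained genes 79.3% were matched, under the 80% set as the minimum, and no value is given for them.

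The 100 bases before the start of the genes Gm813 and Gja4, both lost, and Kpna2 and Ube2s, both stable, show the contrast, with CpG sites in capitals, 5′ to 3′ on the gene's strand (GRCm38.p6, RefSeq). The stretches are chr16:58616979-58617078, chr4:127314040-127314139, chr11:106999526-106999625 and chr7:4812341-4812440, all on the minus strand. They hold 1, 3, 7 and 16 CpG sites, in that order.
Gm813: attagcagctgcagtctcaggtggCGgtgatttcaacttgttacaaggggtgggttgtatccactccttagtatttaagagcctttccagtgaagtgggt
Gja4: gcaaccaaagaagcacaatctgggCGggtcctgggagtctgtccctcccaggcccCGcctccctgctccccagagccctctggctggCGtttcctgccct
Kpna2: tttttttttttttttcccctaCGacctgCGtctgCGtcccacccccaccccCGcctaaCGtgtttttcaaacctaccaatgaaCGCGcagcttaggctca
Ube2s: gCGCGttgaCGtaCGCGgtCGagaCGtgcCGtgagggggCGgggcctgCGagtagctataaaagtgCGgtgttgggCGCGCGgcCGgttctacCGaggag
The homeobox core TAATTG, which NOBOX is known to bind, was searched on both strands of the 300-base windows. It was found for 9.56% of lost genes, 5.46% of stable genes and 6.13% of all tested genes, against 8.0% of all 32851 windows in the table. The ETS core CCGGAAG was found for 13.1% of lost genes, 25.3% of stable genes and 21.0% of all tested genes, against 8.86% of all windows. A gene was counted when any of its windows held the core, while the share of all windows counts each window alone, so those shares are unlike measures. A match describes letters, and base composition differs between the groups compared.

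Transcripts of the egg coat and the oocyte's secreted factors were among the highest of the GV libraries and low in the embryo. Of 7 tested zona pellucida and egg surface genes, 3 fell and 6 were in the lost class, with a median difference of −5.70. Folr4, which encodes the sperm receptor Juno, had 198, 201 and 0.0930 FPKM, in the library order used throughout, and fell by 7.52 on the log2 scale (adjusted p = 0.025). Zp1, a crosslinker of the zona filaments, had 440.3, 626 and 6.98 FPKM and fell (adjusted p = 0.036). Zp2 and Zp3, the main zona proteins, had 312, 1319 and 8.47 FPKM for Zp2 and 572, 1829.5 and 52.1 FPKM for Zp3. Their GV libraries were more than 2-fold apart and neither passed the test (adjusted p = 0.069 and 0.091), although every GV value was above the 4-cell value. Cd9, a membrane protein needed for gamete fusion, was the exception in this list, with 120.0, 74.5 and 188 FPKM and a difference of 0.98 that did not pass (adjusted p = 0.27).

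Of 13 tested oocyte growth and transcription factors, 7 fell and 10 were lost, with a median difference of −4.01. Gdf9, the growth factor through which the oocyte directs granulosa cells, was the top gene of GV library 1 and had 2576, 2875 and 19.9 FPKM (difference −7.02, standard error 0.60, adjusted p = 0.037). Its partner Bmp15 had 381, 1031 and 3.75 FPKM and also fell (adjusted p = 0.045). The oocyte homeobox regulators fell with them. Nobox had 239, 229.6 and 1.10 FPKM (adjusted p = 0.025) and Lhx8 had 95.2, 91.0 and 0.584 FPKM (adjusted p = 0.028). Kit, the receptor for the granulosa ligand, had 74.0, 101 and 4.44 FPKM and fell (adjusted p = 0.042). Figla, the factor that drives the zona genes, had 13.7, 23.5 and 0.182 FPKM and did not pass (adjusted p = 0.0504). Taf4b, a subunit of an alternative TFIID, was the 1 member in the gained class, with 6.89, 6.72 and 46.0 FPKM (adjusted p = 0.054, not passing).

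**Figure D4:**
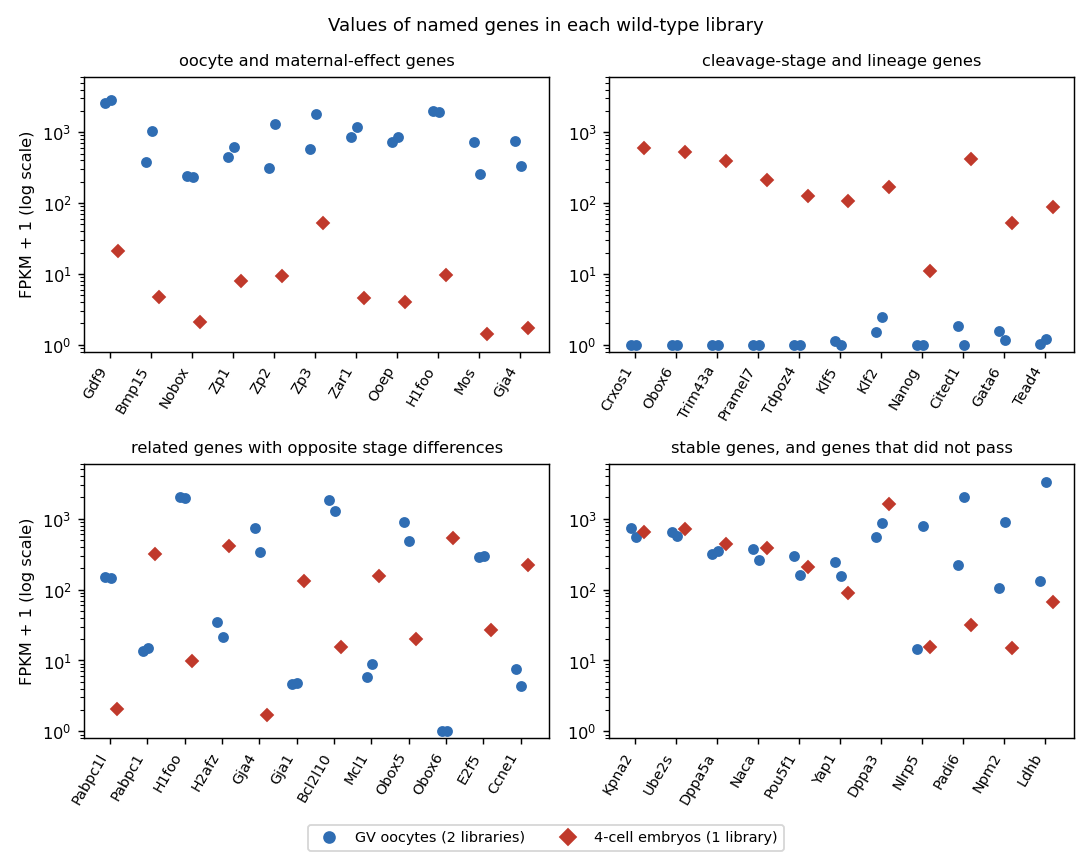
FPKM + 1 (y axis, log scale) of named genes (x axis) in each wild-type library, circles for the 2 GV libraries and diamonds for the 4-cell library, in 4 panels. Oocyte genes such as Gdf9 and H1foo are high in both circles and low in the diamond, Crxos1 and Obox6 are listed at 0 in both GV libraries, and Nlrp5, Padi6, Npm2 and Ldhb have circles far apart.

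Maternal-effect genes, whose product in the egg is needed by the embryo, mostly lay lower in the 4-cell library. Of 21 tested, 13 were below both GV libraries and 4 above both, 8 fell, 13 were lost and 1 was gained, with a median of −4.02. Ooep, a member of the subcortical maternal complex, had 735, 858 and 2.97 FPKM and fell by 7.65 on the log2 scale (adjusted p = 0.026). Zar1, an RNA-binding protein needed for the first cleavage, had 865, 1185 and 3.60 FPKM and fell by 7.78 (adjusted p = 0.029). Its relative Zar1l had 476, 283 and 1.36 FPKM (adjusted p = 0.034). Tle6 and Nlrp2, of the same complex as Ooep, fell with 589, 1237 and 12.8 FPKM for Tle6 and 109.6, 126 and 0.846 FPKM for Nlrp2. Zbed3, another component of that complex, had 2403, 3139.5 and 39.7 FPKM, the highest GV mean of all tested genes, and fell by 6.08 (adjusted p = 0.042). Zfp57, which protects imprints, had 861, 1007 and 15.8 FPKM and fell (adjusted p = 0.037).

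Other members of the list did not pass. Trim28, the corepressor that Zfp57 recruits, had 131, 112 and 327 FPKM, Ctcf, an architectural factor, had 16.1, 39.3 and 83.3 FPKM, and Smarca4, a remodeller ATPase, had 4.34, 31.1 and 131 FPKM. All 3 were above both GV libraries (adjusted p = 0.13, 0.21 and 0.20). Dppa3, which guards maternal DNA methylation, had 554, 866 and 1625 FPKM and was among the 10 highest genes of the embryo (adjusted p = 0.32). Hsf1, the heat shock regulator, was stable with 43.5, 52.9 and 51.1 FPKM.

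For several members the GV libraries lay far apart. Nlrp5, also known as Mater, had 13.6, 781 and 14.5 FPKM. Padi6 had 225, 2039 and 30.6 FPKM and Npm2, a histone chaperone of the egg, had 105, 907 and 14.0 FPKM. GV library 1 was the low one in each case, and for Nlrp5 it was below the embryo. Ldhb, the lactate dehydrogenase of the oocyte, is in another list and differed more, with 133, 3307 and 65.0 FPKM. None of the 4 passed (adjusted p between 0.17 and 0.54). The YAP-null GV libraries carry the same numbers and differed the same way, with 115 and 3177 FPKM for Ldhb in their libraries 1 and 2. Of 2440 tested genes whose wild-type GV libraries were at least 2-fold apart, 2379 had a difference of the same sign in YAP-null. The labels do not say what the numbers mark. A difference between the libraries in depth was given above, and its part in these genes was not tested.

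Most tested members of 3 oocyte gene families were lost. The 6 tested genes of the oocyte Oas1 cluster on chromosome 5 were all lost, with a median of −5.97, and 4 fell. Oas1e had 655, 793 and 1.78 FPKM and fell by 8.02 (adjusted p = 0.025). Of 9 tested oocyte Nlrp genes, 8 were lost and 5 fell, and Nlrp9b had 216, 285 and 0.464 FPKM (adjusted p = 0.026). Nlrp4c was the exception and was stable, with 8.44, 10.7 and 11 FPKM. All 6 Tcl1 family genes on chromosome 12 fell. Tcl1, a cofactor of the AKT kinase, had 1045, 626 and 11.3 FPKM (difference −6.05, adjusted p = 0.041).

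The longest run of neighbouring lost genes held 12 F-box genes of the Fbxw family on chromosome 9 (mm9 chr9:109041968-109648603), of which 8 fell, with differences from −7.26 to −4.07. F-box proteins are substrate adaptors of ubiquitin ligases. Fbxw18 had 356, 311 and 1.18 FPKM (adjusted p = 0.025). In all, 16 runs of at least 4 lost genes held 82 genes and 23 runs of at least 4 gained genes held 103. The longest gained run held 7 class I histocompatibility genes, from H2-D1 to H2-Q10 (mm9 chr17:35400039-35611508), which all rose. H2-D1 itself had 0.197, 0.873 and 14.2 FPKM. The Tdpoz genes lie in a gained run of 6 on chromosome 3, and Fthl17, a ferritin-like gene, lies in a gained run of 5 on chromosome X, of which 5 rose. The nearest tested neighbour of a lost gene was itself lost in 22.6% of cases, against 14.2% of all tested genes with a lost neighbour. For gained genes the shares were 25.3% and 17.3%, and for stable genes 9.72% and 9.60%. Genes of such families are near-identical copies, and the sources used here do not say how shared fragments were divided among them, so values of single copies are uncertain.

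Regulators of meiosis were mixed. Of 31 tested, 5 fell, 9 were lost and 2 were gained, and the median was −0.83. Mos, the kinase that holds the egg at the second metaphase, had 718, 256 and 0.414 FPKM and fell by 8.25 (adjusted p = 0.042). Wee2, the oocyte kinase that restrains CDK1, had 126, 163 and 5.97 FPKM (adjusted p = 0.040). Bub1b, a spindle checkpoint kinase, had 458, 462 and 21.4 FPKM, and Fzr1, an activator of the anaphase-promoting complex, had 93.3, 93.6 and 9.41 FPKM, and both fell. Other members did not pass. Cdc20, the other activator of that complex, had 114, 65.9 and 488 FPKM, Cdk1 had 43.9, 34.9 and 139 FPKM and Ccnb1, its cyclin, had 433, 233 and 585 FPKM, and each was above both GV libraries (adjusted p = 0.089, 0.082 and 0.42). Of the lists of meiotic and maternal-effect genes, no member was called higher by limma, with 3 and 0 members higher at an unadjusted p under 0.05 and 2 and 1 called higher in the 6-library fit.

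More genes of the machinery that stores and shortens maternal messages fell than rose. Rises were less frequent than among all tested genes (12.2%), and falls were more frequent (8.14%). Of 38 tested genes of mRNA storage, deadenylation and decay, 9 fell and 2 rose. The pair of poly(A)-binding proteins went opposite ways. Pabpc1l, the oocyte form, had 152, 146 and 1.09 FPKM and fell by 6.16 (adjusted p = 0.027), and Pabpc1, the general form, had 12.7, 14.0 and 318 FPKM and rose by 4.48 (adjusted p = 0.037). Cpeb1, which controls cytoplasmic polyadenylation, had 236, 352 and 4.07 FPKM (adjusted p = 0.037). Eif4e1b, the oocyte cap-binding protein, had 437, 828 and 8.20 FPKM and fell, while Eif4e, the general one, had 76.0, 73.8 and 362 FPKM and did not pass (adjusted p = 0.064).

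Cnot6l and Btg4, of the machinery that removes poly(A) tails from maternal messages, also fell. Cnot6l, a catalytic subunit of the CCR4-NOT complex, had 79.4, 136 and 3.72 FPKM, and Btg4, its adaptor in the egg, had 406, 362 and 30.4 FPKM, with adjusted p = 0.045 and 0.045. Dcp1a, a decapping cofactor, had 125, 161 and 9.61 FPKM (adjusted p = 0.042). Ythdf2, a reader of methylated adenosine that marks messages for decay, was in the gained class, with 21.3, 15.5 and 106 FPKM (adjusted p = 0.061, not passing). Of 23 tested genes of the small RNA and piRNA pathway, 4 fell and 2 rose. Gtsf1, a piRNA cofactor, had 453, 232 and 5.83 FPKM and fell by 5.57 (adjusted p = 0.043), while Mael, of the same pathway, was stable with 38.2, 32.2 and 33.2 FPKM.

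Most tested genes of the 2-cell activation list were in the gained class. Of 33 listed genes with a value, 24 passed the filter. Of these, 19 rose and 2 fell, with a median of 3.47 against −0.12 for all tested genes. A gene at 0 in both GV libraries passes the filter only through its 4-cell value. All 270 such genes were called higher, so these counts partly follow from the filter. Zscan4c, a telomere factor of the 2-cell stage, had 0.146, 0.650 and 5.98 FPKM and rose (adjusted p = 0.049), and Zfp352, a zinc finger gene, had 0, 0 and 10.9 FPKM (adjusted p = 0.025). Higher levels were reached by Pramel7, a leucine-rich repeat protein, with 0, 0 and 209 FPKM, and by Tdpoz4, a BTB domain gene, with 0, 0 and 126 FPKM. Both were listed at 0 in the GV libraries, so their differences of 7.71 and 6.99 depend on the pseudocount and no fold is given. Eif1a, a translation factor gene, had 1.14, 1.72 and 50.9 FPKM and rose (adjusted p = 0.041), while its X-linked relative Eif1ax, also in the list, had 249, 216 and 90.9 FPKM and did not pass (adjusted p = 0.14).

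The members that fell were Arg2, the mitochondrial arginase, with 218, 119 and 6.54 FPKM, and E330034G19Rik, with 947, 641 and 17.5 FPKM (adjusted p = 0.048 and 0.041). Dux, the factor that precedes Zscan4 in the 2-cell embryo, was below the filter at 0, 0 and 2.22 FPKM.

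The Obox homeobox genes divided into an oocyte group and an embryo group. Obox1 and Obox5 fell, with 704, 412 and 6.64 FPKM for Obox1 and 904, 479 and 19.2 FPKM for Obox5 (adjusted p = 0.040 and 0.048), and Obox2, with 2086, 629 and 7.14 FPKM, was lost without passing (adjusted p = 0.051). Obox6 and Obox3 rose, with 0, 0 and 531 FPKM for Obox6 and 0.429, 0.572 and 51.1 FPKM for Obox3 (adjusted p = 0.025 and 0.031). The homeobox gene Crxos1, with 0, 0 and 600.5 FPKM, and the ligase genes Trim43a and Trim43b, with 0, 0 and 394 FPKM for Trim43a and 0, 0 and 384 FPKM for Trim43b, also rose. Of this list 17 genes had a value and 11 were tested, of which 8 rose and 2 fell. The same limit of the filter applies to genes at 0 in both GV libraries.

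Other gained genes with large differences included surface and lysosomal genes. Alppl2, an alkaline phosphatase of early embryos, had 3.01, 5.35 and 2094 FPKM and rose by 8.70 (adjusted p = 0.027). Cd63, a tetraspanin of endosomes, had 1.12, 1.06 and 962 FPKM (adjusted p = 0.025). Folr1, a folate receptor, had 0.270, 0.240 and 390.2 FPKM, and Ctsc, a lysosomal protease, had 0, 0 and 347 FPKM, and both rose. Ptma, encoding prothymosin alpha, had 50.5, 86.0 and 1599 FPKM and rose by 4.58 (adjusted p = 0.047). Gm11517 and Gm16367 were listed at 0 in both GV libraries and had 885 and 769.8 FPKM in the embryo.

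Pluripotency regulators showed 2 patterns. Of 29 with a value, 24 passed the filter, some of them, such as Klf5 and Nanog, only through the 4-cell library. The median difference was 1.83 over 29 genes without the low-value filter and 3.47 over 18 genes at a mean of at least 5 FPKM. Of 24 tested, 12 rose, none was called lower (0 at an unadjusted p under 0.05, and 0 in the 6-library fit), and the median was 2.61. Klf5 and Klf2, Krüppel-like factors, had 0.132, 0 and 106 FPKM for Klf5 and 0.499, 1.5 and 168 FPKM for Klf2 and rose by 6.65 and 6.45 (adjusted p = 0.025 and 0.038). Nr5a2, a nuclear receptor of the early embryo, had 12.1, 13.2 and 179 FPKM (adjusted p = 0.041). Dppa4 and its partner Dppa2 had 7.52, 7.81 and 284 FPKM for Dppa4 and 31.2, 46.6 and 484 FPKM for Dppa2, and both rose. Nanog was listed at 0 in both GV libraries and had 10.1 FPKM. In contrast Pou5f1, the core factor OCT4, was stable with 298, 161 and 207 FPKM (difference −0.08, adjusted p = 0.93). Dppa5a and Lin28a were stable too, with 321, 347 and 441 FPKM for Dppa5a and 18.6, 21.3 and 23.6 FPKM for Lin28a.

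Of 34 tested genes of the early lineages and the trophectoderm, 11 rose and 2 fell, with a median of 0.77. Cited1, a transcriptional coactivator, had 0.857, 0 and 412 FPKM and rose by 8.24 (adjusted p = 0.035). Gata6, of primitive endoderm, and Tfap2c, of trophectoderm, rose, with 0.543, 0.181 and 52.1 FPKM for Gata6 and 12.2, 10.9 and 101 FPKM for Tfap2c (adjusted p = 0.033 and 0.045). The tight junction genes Cldn7 and Cldn6 rose, with 0.808, 0.957 and 36.2 FPKM for Cldn7 and 0.307, 0.204 and 12.7 FPKM for Cldn6. Aqp3, a water channel of trophectoderm, had 0, 0.172 and 16.4 FPKM and rose (adjusted p = 0.026). Gata1, a factor best known from blood, was listed at 0 in both GV libraries and at 61.2 FPKM in the embryo. Cited1, Gata6, Cldn7, Cldn6, Aqp3 and Gata1 had GV means under 1 FPKM and passed the filter only through the 4-cell library. Of 46 genes of this list with a value, 34 passed it. The median was 0.63 without the low-value filter and 0.96 at a mean of at least 5 FPKM. Cdx2 and Eomes, factors of the trophectoderm, were below the filter, with 0.0520, 0 and 0.427 FPKM for Cdx2 and 0, 0 and 1.90 FPKM for Eomes, and Gata3, another, was low throughout, with 4.15, 3.78 and 0.588 FPKM (adjusted p = 0.054, not passing). The main gap junction genes went opposite ways. Gja4, which couples the oocyte to granulosa cells, had 751, 336 and 0.697 FPKM and fell by 8.21 (adjusted p = 0.038), and Gja1, the widespread connexin 43, had 3.67, 3.83 and 133 FPKM and rose by 4.82 (adjusted p = 0.037).

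Further lost genes at high oocyte levels had other roles. Gm813, which had the largest difference of the lost class, had 325, 670.5 and 0 FPKM and fell by 8.87 (adjusted p = 0.034). Plat, the tissue plasminogen activator that eggs store as dormant mRNA, had 1266, 559 and 2.72 FPKM and fell by 7.82 (adjusted p = 0.040). Cpsf4l, a relative of a polyadenylation factor, had 1332, 539 and 1.98 FPKM and fell by 8.15 (adjusted p = 0.041). In contrast Oosp1, an oocyte-secreted protein, and Uchl1, a deubiquitinase, were lost without passing (adjusted p = 0.065 and 0.066), with 1973, 884 and 55.4 FPKM for Oosp1 and 750.0, 2131 and 34.3 FPKM for Uchl1 and GV libraries more than 2-fold apart.

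The Hippo pathway, whose kinases keep YAP out of the nucleus, was measured through 19 tested components. Of these 4 rose and 1 fell, with a median of 0.91. Yap1 (mm9 chr9:7932001-8004596) had 248, 154 and 89.7 FPKM. The embryo lay below both GV libraries, but the difference of −1.11 (standard error 0.57) did not pass (adjusted p = 0.24). Its relative Wwtr1, which encodes TAZ, had 1.21, 1.68 and 21.4 FPKM and rose by 3.20 (adjusted p = 0.044). Tead4, the DNA-binding partner of YAP, had 0.0370, 0.197 and 87.4 FPKM and rose by 6.31 (adjusted p = 0.026). Of the other TEAD genes, Tead2 had 3.80, 2.25 and 4.56 FPKM, Tead3 had 2.44, 6.13 and 0.370 FPKM, neither passing, and Tead1 was below the filter with 0.333, 0.891 and 1.73 FPKM. The kinase Lats1 rose, with 0.365, 0.740 and 8.45 FPKM (adjusted p = 0.041), and Lats2, with 0.184, 0.655 and 3.87 FPKM, did not pass (adjusted p = 0.057). Vgll1, a TEAD cofactor, was the one that fell, with 4.53, 4.29 and 0 FPKM (adjusted p = 0.039). The kinase genes Stk3 and Stk4, which encode MST2 and MST1, lay on opposite sides, with 10.5, 20.4 and 1.42 FPKM for Stk3 and 3.28, 2.51 and 18.4 FPKM for Stk4, and neither passed (adjusted p = 0.087 and 0.064). The upstream gene Nf2, also called Merlin, had 16.5, 33.2 and 107 FPKM (adjusted p = 0.12).

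**Figure D5:**
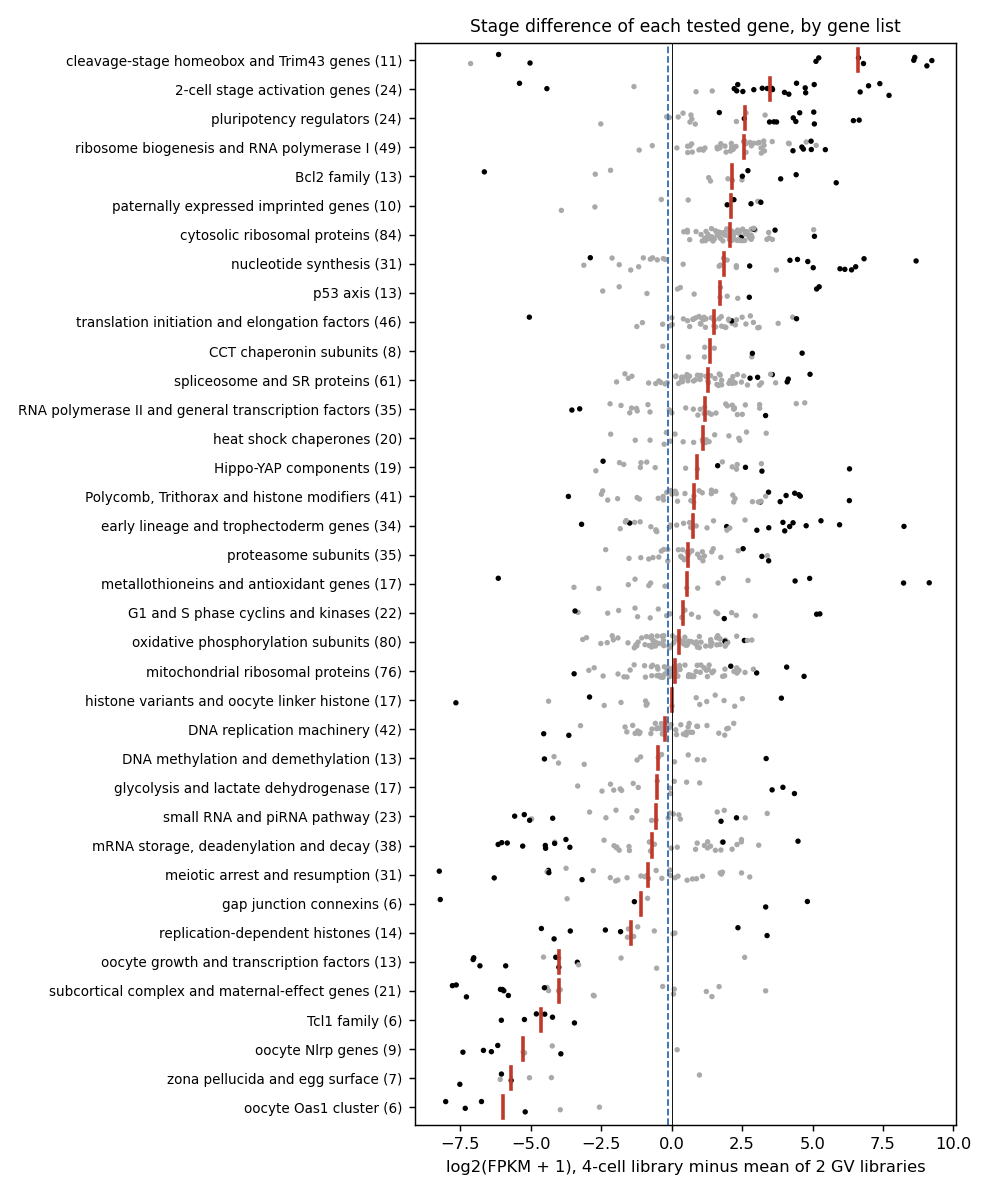
Stage difference (x axis, log2(FPKM + 1), 4-cell library minus the mean of 2 GV libraries) of each tested gene (points) in 37 gene lists (y axis, number tested in parentheses), with list medians as red bars and the median of all tested genes, −0.12, as a dashed line. Black points passed limma at an adjusted p of 0.05. The Oas1, zona and Nlrp lists lie at the left end and the homeobox and 2-cell lists at the right end.

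Enzymes of nucleotide synthesis gave large gains. Of 31 tested, 11 rose and 1 fell, and the median was 1.84. Prps1, which makes the ribose donor of all nucleotides, had 0.569, 0.606 and 647 FPKM and rose by 8.67 (adjusted p = 0.025). Impdh2, the rate-limiting enzyme of guanine nucleotide synthesis, had 9.73, 5.07 and 915 FPKM (adjusted p = 0.037), and Impdh1 had 0.826, 0.979 and 174 FPKM (adjusted p = 0.029). Ppat, the first committed enzyme of purine synthesis, and Cad, of pyrimidine synthesis, rose, with 0.803, 0.50 and 136 FPKM for Ppat and 1.90, 1.23 and 81.5 FPKM for Cad. The salvage enzymes Hprt and Aprt rose as well, with 26.4, 33.6 and 564 FPKM for Hprt and 4.55, 5.47 and 375 FPKM for Aprt. Mthfd2, a mitochondrial folate enzyme, fell, with 106, 88.7 and 12.2 FPKM (adjusted p = 0.048).

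Genes for making ribosomes were higher in the embryo across the list. Of 84 cytosolic ribosomal protein genes, all 84 lay above both GV libraries, 26 were gained and 4 rose, with a median of 2.07. Of all 11464 tested genes, 4933 lay above both GV libraries, 16.7% were gained and 12.2% were called higher. Calls were therefore not more frequent in this list. After quantile normalization 82 of the 84 lay above the GV mean. Their summed level was 19934 and 12776 FPKM in the GV libraries and 59392 FPKM in the embryo. The 30 genes at an unadjusted p under 0.05 were all higher. Rpl9 had 24.8, 25 and 866 FPKM and rose by 5.07 (adjusted p = 0.034), while Rplp1, the highest in the embryo, had 333, 354 and 2135 FPKM and did not pass (adjusted p = 0.087). The list's median was above that of all tested genes under every scaling tried, at 1.81, 2.23 and 1.65 after rescaling to equal sums, median ratios and quantiles. Of 49 genes of ribosome biogenesis, 24 were gained, with a median of 2.55, and 6 rose, a share near the 12.2% of all tested genes. Nop2, an rRNA methyltransferase, had 3.68, 3.57 and 142 FPKM (adjusted p = 0.036) and Ubtf, the RNA polymerase I activator, had 5.51, 6.85 and 181 FPKM (adjusted p = 0.037). Fbl, encoding fibrillarin, had 8.49, 22.1 and 404 FPKM and did not pass (adjusted p = 0.058).

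Mitochondrial ribosomal proteins were mixed. Of 76 tested, 4 rose and 1 fell, with 8 gained and 4 lost, and the median was 0.13, which turned to −0.12 after rescaling to equal sums and to −0.10 without GV library 2. Mrpl20 had 6.80, 4.93 and 175 FPKM and rose (adjusted p = 0.039), and Mrps36 had 139, 116 and 10.6 FPKM and fell (adjusted p = 0.043). Of 80 oxidative phosphorylation subunits 2 rose, 3 were gained and 4 lost, with a median of 0.26. Whether the 2 ribosome lists differ was not tested.

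Other expression machinery had medians above that of all genes. In each of these lists, calls in either direction were less frequent than among all tested genes (12.2% higher and 8.14% lower). Of 35 tested genes of RNA polymerase II and its general factors 1 rose and 2 fell, with a median of 1.17. Tbpl2, the oocyte TBP relative, had 7.63, 9.71 and 0 FPKM and fell (adjusted p = 0.042), as did Gtf2b with 232, 259 and 20.1 FPKM (adjusted p = 0.043). Gtf2e1, a subunit of TFIIE, had 1.39, 2.09 and 26.3 FPKM and rose (adjusted p = 0.046). Of 61 spliceosome and SR protein genes 6 rose, with a median of 1.29, and the splicing factor Srsf1 had 10.5, 11.5 and 142 FPKM (adjusted p = 0.041). Of 46 translation factors 2 rose and 1 fell, with a median of 1.5. Eef2k, the kinase that brakes elongation, was the one that fell, with 121, 116 and 2.60 FPKM (adjusted p = 0.032).

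Chaperone and proteasome genes were counted by list, and whether these lists differ was not tested. Of 8 subunits of the CCT chaperonin 2 rose, against 12.2% of all tested genes called higher, and Cct6a had 8.28, 5.52 and 191 FPKM (adjusted p = 0.041). Of 20 heat shock chaperones limma called 0, with 5 at an unadjusted p under 0.05 and 6 called in the 6-library fit. Hspa8 and Hsp90ab1, general chaperones, were nonetheless among the 10 highest transcripts of the embryo, with 434, 454 and 1816 FPKM for Hspa8 and 142, 189 and 1685 FPKM for Hsp90ab1. Of 35 proteasome subunits 3 rose, a share below that of all tested genes, with a median of 0.58.

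Energy metabolism was uneven. Of 17 tested glycolysis genes 3 rose, with a median of −0.51, and 8 lay 2-fold or more below the mean of the GV libraries (log2 scale) against 3 that lay as far above it. None was called lower, with 3 lower at an unadjusted p under 0.05 and 3 in the 6-library fit. The hexokinase Hk1 had 0.335, 0.418 and 27.2 FPKM and the glucose transporter Slc2a3 had 0.136, 0 and 15.4 FPKM, and both rose (adjusted p = 0.029 and 0.025). Pgam1, a later enzyme, rose with 10.4, 10.5 and 135 FPKM (adjusted p = 0.041). Gapdh, often used as a reference gene, had 76.8, 65.3 and 103 FPKM and did not pass (adjusted p = 0.38).

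Chromatin genes changed in both directions. H1foo, the oocyte linker histone, had 1996, 1952 and 8.78 FPKM and fell by 7.66 (adjusted p = 0.030), and H2afz, the variant H2A.Z, had 34.4, 20.4 and 408 FPKM and rose by 3.89 (adjusted p = 0.049). Of 14 tested replication-dependent histone genes 5 fell and 2 rose, with a median of −1.44. Hist1h2aa and Hist1h2bc fell, with 30.7, 18.2 and 0 FPKM for Hist1h2aa and 41.2, 62.3 and 3.27 FPKM for Hist1h2bc (adjusted p = 0.045 and 0.048). Of 66 replication-dependent histone genes with a value, 14 passed the filter. Without the low-value filter the median was −0.06 over 49 genes, with 24 above and 25 below 0. At a mean of at least 5 FPKM it was −4.17 over 3 genes. Most messages of this kind lack a poly(A) tail, and the libraries were made from purified mRNA, whose part in these values was not tested. The replacement histones H3f3a and H3f3b had 409.7, 292 and 691 FPKM for H3f3a and 215, 162 and 443 FPKM for H3f3b and did not pass. Of 41 Polycomb, Trithorax and histone modifier genes 8 rose and 1 fell, with a median of 0.79. The demethylase Kdm5b rose by 6.30, with 0.704, 0.581 and 129 FPKM (adjusted p = 0.029), and Hdac1, a deacetylase, rose with 11.2, 6.38 and 215 FPKM (adjusted p = 0.044). Kdm1b, the demethylase that prepares maternal imprints, was the one that fell, with 73.5, 75.1 and 4.93 FPKM (adjusted p = 0.041).

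Of 13 tested genes of DNA methylation and demethylation, 1 rose and 1 fell, with a median of −0.48. Uhrf1, which recruits the maintenance methyltransferase, had 275, 305 and 11.7 FPKM and fell by 4.52 (adjusted p = 0.038). Dnmt1, that methyltransferase, had 200.2, 1005 and 23.9 FPKM and Tet3, the oxidase of the zygote, had 10.8, 65.5 and 0.733 FPKM. Both were lost by size without passing (adjusted p = 0.13 and 0.15), with GV libraries more than 4-fold apart. Tet1 had 0.164, 0.159 and 10.9 FPKM and rose (adjusted p = 0.025).

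Genes of DNA replication were called less often than all tested genes, of which 12.2% were called higher and 8.14% lower. Of 42 tested, 2 fell, 0 were gained and 3 were lost, with a median of −0.22 that lay near that of all genes. Orc5, of the origin recognition complex, and Rpa1, which coats single strands, fell, with 289.9, 200.3 and 9.39 FPKM for Orc5 and 139, 111 and 8.93 FPKM for Rpa1 (adjusted p = 0.041 and 0.042). None was called higher, with 4 higher at an unadjusted p under 0.05 and 2 in the 6-library fit. Of 22 tested G1 and S phase cyclins, kinases and regulators, 3 rose and 1 fell, near the shares of all tested genes, with a median of 0.41. Ccne1, the S-phase cyclin E1, had 6.61, 3.37 and 219 FPKM and rose by 5.26 (adjusted p = 0.042), Cdkn1a, the inhibitor p21, had 0.413, 0.786 and 55.1 FPKM and rose (adjusted p = 0.035), and E2f5, a repressive E2F, had 291, 295 and 26.3 FPKM and fell (adjusted p = 0.045).

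Survival genes of the Bcl2 family went opposite ways. Bcl2l10, an antiapoptotic gene of the oocyte and among its 10 highest transcripts, had 1833, 1307 and 14.4 FPKM and fell by 6.65 (adjusted p = 0.037). Mcl1, another antiapoptotic member, had 4.92, 8.01 and 155 FPKM and rose by 4.42 (adjusted p = 0.043). Of 13 tested, 5 rose and 1 fell. The proapoptotic Bid had 0.537, 0.159 and 18.5 FPKM and rose (adjusted p = 0.037), and Bax had 14.3, 12.8 and 81.1 FPKM and did not pass (adjusted p = 0.053).

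The stable class (8.98% of tested genes) held transcripts at high levels in each library. Kpna2, an importin that carries proteins into the nucleus, had 746, 548 and 655 FPKM (difference 0.03, standard error 0.68), and Ube2s, the ubiquitin-conjugating enzyme of the anaphase-promoting complex, had 657, 569.7 and 706 FPKM (difference 0.21, standard error 0.64). Omt2b and Omt2a, a pair of oocyte maturation genes, had 358, 345 and 244 FPKM for Omt2b and 185, 216 and 219 FPKM for Omt2a. Naca, a chaperone of nascent chains, had 368, 261 and 380.2 FPKM, and Rab7, a GTPase of late endosomes, had 208, 348 and 311 FPKM. With standard errors of this size a stable gene may still differ by more than 1.5-fold, and a stable level does not separate a kept maternal transcript from an equal amount made by the embryo.

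The same genes were read in the YAP-null libraries, which share no sample with the wild-type contrast. Yap1 itself had 10.8, 10.04 and 33.3 FPKM in YAP-null GV library 1, GV library 2 and the 4-cell library. Of 1702 lost genes, 1676 were lower in the YAP-null 4-cell library than in the mean of the YAP-null GV libraries, and 807 (47.4%) met the lost rule there, which 8.89% of all tested genes did. Of 1920 gained genes, 1868 were higher and 1367 (71.2%) met the gained rule, against 13.5% of all tested genes, and no gene took the opposite class. The median difference of the lost genes was −2.22 in YAP-null and −3.17 in wild type, and that of the gained genes 2.89 and 3.19, the wild-type medians being set by the choice of the genes. Several oocyte gene lists had smaller differences in YAP-null. The Tcl1 family had a wild-type median of −4.65 and a YAP-null median of −0.23, and for Tcl1 the differences were −6.05 and −0.83. Medians were −5.70 and −2.55 for the zona and egg surface list and −5.27 and −2.74 for the oocyte Nlrp list. Among other lost genes, Bcl2l10 had −6.65 and −1.43 and Eif4e1b −6.03 and −1.41, while Gtsf1 had −5.57 and −6.35. The test of the difference between genotypes over 6 libraries did not pass for any of the 6 Tcl1 family genes (adjusted p from 0.089 for Tcl1b3 to 0.29 for Tcl1). Over all tested genes it passed for 60, of which 59 had the higher difference in wild type and 1 the lower, with 1223 at an unadjusted p under 0.05. Among them was Aqp3, with 4.01 in wild type and −0.11 in YAP-null (interaction adjusted p = 0.046). The filter used the wild-type libraries alone, so a gene high only in the YAP-null 4-cell library was not tested. The direction of these 60 differences therefore partly follows from the filter. The YAP-null 4-cell stage is also 1 library, so the genotype cannot be told apart from that library.

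Markers of other cells bear on both stages. Of 16 granulosa and cumulus markers 5 were tested, of which 4 fell and 1 rose. Inha and Cyp19a1, of hormone production, fell, with 14.6, 15.6 and 0.491 FPKM for Inha and 9.51, 10.8 and 0.144 FPKM for Cyp19a1. The hormone gene Amh and the steroid enzyme gene Hsd3b1 also fell, with 4.46, 4.21 and 0.141 FPKM for Amh and 1.89, 2.28 and 0.0628 FPKM for Hsd3b1. The other 11 had at most 2.22 FPKM, the value of Cyp11a1 in GV library 2, and of these Ptx3 and Tnfaip6 were at 0 in all 3 libraries. The list summed to 35.2 and 39.2 FPKM in the GV libraries and 76.7 FPKM in the embryo, of which 74.7 FPKM was Amhr2, the receptor gene that rose. Of 7 blood markers, 4 globin genes were gained, and the list summed to 4.06, 1.09 and 93.7 FPKM. Hba-a2, an alpha globin, had 0.0546, 0 and 26.0 FPKM and rose (adjusted p = 0.025), and its near-identical copy Hba-a1, with 1.25, 0 and 26.3 FPKM, did not pass (adjusted p = 0.058), so the split between the copies is uncertain. The leukocyte gene Ptprc was at or near 0 in each library. The 9 Y-linked genes of the list were at 0 in both GV libraries, and Zfy1 and Sry were at 0 in the embryo too. The other 7 were at or below 2.56 FPKM there, the value of Ddx3y, with 2.51 FPKM for Uba1y, 1.98 FPKM for Eif2s3y and 0.811 FPKM for Uty. Xist, the RNA that silences an X chromosome, had 0, 0.170 and 3.24 FPKM and rose (adjusted p = 0.035). In pooled samples, fewer cells of a type and less RNA per cell cannot be told apart. The part of these other cells in the stage differences was not tested.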

How the data were processed

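Per the labels, RNA of 60 oocytes or embryos per library was sequenced as paired ends. CASAVA 1.8, TopHat and the mouse build mm9 are named per the submitters' processing notes. The program that computed expression, and its gene models, are not given in the sources used. The authors deposited 1 table per library with FPKM values and bounds, per the file headers. The tables hold no fragment counts, so depth is unknown.

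Of 23813 lines, the 1 marked as failed was dropped, and values were added up for 260 symbols with several loci, which gave 23308 symbols. File positions were counted from 1. Values were used without rescaling as log2(FPKM + 1), for genes averaging 1 FPKM or more. The stage was tested with limma 3.58.1 in R 4.3.3 (trend on, two-sided, Benjamini-Hochberg adjustment), checked on simulated data. Size classes and list counts carry no test. Tables were made with Python 3.11.15, pandas 2.3.3 and numpy 2.4.6, and plots with matplotlib 3.10.9.

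Members, the 41 gene lists and tests were chosen with earlier results of these data known. Named genes were the 15 largest differences per direction at 10 FPKM or more (lost and gained classes), the 10 highest stable genes, the 10 highest genes of each stage, Yap1, and in each list all members up to 8 or the 3 largest per direction and the highest. Genes outside this rule (Trim28, Ctcf, Hsf1, Lin28a, Gapdh and others) were chosen for their role after their values were seen. Alternatives covered scaling, pseudocounts of 0.1 and 5 FPKM, filters, thresholds, leaving out each GV library and the 6-library fit. Leaving out genes at 0 in both GV libraries, and a block on the GV replicate numbers, were chosen after seeing the data.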

Additional observations from a re-analysis of the deposited data

Results flagged for a closer look

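Among the 189 named genes, several had stage differences of opposite sign in every sample of the genotypes (log2 scale, 4-cell minus GV). The other tested genes were not searched for this. Yap1, the deleted gene, differed by −1.11 in wild type and 1.59 in YAP-null. Lats2 differed by 1.8 and −0.50, Dppa5a by 0.40 and −0.34, Naca by 0.29 and −0.59, Omt2b by −0.53 and 1.65, and Tcl1b3 by −4.23 and 0.74. Dppa5a, Naca and Omt2b were in the wild-type stable class, so their sign there rests on small differences. The interaction test of limma over 6 libraries passed for none of these 6 genes, with adjusted p = 0.33, 0.27, 0.73, 0.83, 0.38 and 0.089.

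That test passed for Aqp3, whose stage difference was 4.12 higher in wild type (4.01 against −0.11, interaction adjusted p = 0.046), and for Hba-a2, whose difference was 4.62 higher (4.72 against 0.09, interaction adjusted p = 0.011). Each 4-cell stage is 1 library, so neither can be told apart from a difference between libraries. Both had a wild-type GV mean under 1 FPKM and passed the filter only through the wild-type 4-cell library. Hba-a1, the copy of Hba-a2, differed by 4.18 and 4.75, and the split of fragments between the copies is uncertain. No group held the 4 samples needed to judge whether 1 lies far from the others.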

How the results depend on the processing

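The 4-cell stage has 1 library, so its own spread is unknown, and depth can be stated only relatively. Counts by size hold within 1.5 times under each scaling tried. They do not hold when the pseudocount or fold rule changes, as the counts were then 2558 lost with a pseudocount of 0.1 FPKM, 771 lost, 1019 gained and 2297 stable with a pseudocount of 5 FPKM, 3352 lost and 3264 gained at 2-fold, and 762 lost and 920 gained at 8-fold. Stable genes numbered 4526 without the low-value filter. Leaving out a GV library gave 2098 to 2407 lost, 2234 to 2483 gained and 2090 to 2163 stable genes.

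The limma calls depend strongly on the fit. Genes called higher and lower were 2339 and 2135 with 6 libraries (2277 of the 2337 calls shared), 673 and 99 with a minimum fold of 2, and 2380 and 2714 without genes at 0 in both GV libraries. Genes called lower were 505 with a pseudocount of 5 FPKM, 191 without the low-value filter and 1418 at a mean of at least 5 FPKM. Without the trend, limma called 0 and 0 genes (5282 at an unadjusted p under 0.05), and leaving out either GV library from the 6-library fit gave 0 to 0 (4298 and 4297 unadjusted). With 3 libraries, leaving out a GV library left no residual degree of freedom and no test.

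Rescaling to equal sums shifted the median of all genes by −0.25 and median ratios by 0.17. The median's sign turned for 2 of 41 lists: mitochondrial ribosomal proteins (−0.12 by equal sums and −0.10 without GV replicate 2) and histone variants (−0.24, −0.13 and −0.30 by equal sums, quantiles and without GV replicate 2, against 0.01). No tested gene was left in the lists of Y-linked and sperm genes at a mean of at least 5 FPKM. The GV libraries share replicate numbers across genotypes and the 4-cell libraries carry none, so the wild-type contrast alone allows no pairing. The difference of GV library 2 from 1 correlated between the genotypes (Pearson's r = 0.855 across 11464 genes, which are not independent replicates). A replicate block on the GV numbers in the 6-library fit, chosen after seeing the data, left 1 residual degree of freedom and sets the numberless embryo midway between the numbers. With the block, limma called 4185 genes higher and 4501 lower, and the interaction test called 0 genes in place of 60 (3740 at an unadjusted p under 0.05, adjusted p = 0.071 for both Aqp3 and Hba-a2). Of 189 named genes, 131 passed the test, and none of these turned in direction under the 10 alternatives run for single genes. The filters and the 6-library fit do not change the difference itself, so they could not show a turn. Where the 4-cell value lies beyond both GV values, changing the pseudocount or leaving out a GV library cannot turn it either. The fit without the trend, the minimum fold of 2 and the 6-library fits without a GV library were not among those 10. Their calls are given above and do not enter the counts that follow. Of the 131 genes, 71 no longer passed without the low-value filter, against 2 to 15 under the other alternatives that lost any.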

Other observations

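Genes expressed from the paternal allele divided. Of 22 with a value, 10 passed the filter. Mcts2, Gab1 and Zrsr1, named below, had GV means under 1 FPKM and passed it only through the 4-cell library. Without the low-value filter the median difference was 0.58 over 21 genes, with 12 above and 9 below 0. At a mean of at least 5 FPKM it was 0.19 over 4 genes. Of 10 tested, 4 rose by limma and none was called lower (2 lower at an unadjusted p under 0.05, and 2 in the 6-library fit), with a median difference of 2.09. Mcts2 had 0.981, 0.870 and 16.3 FPKM in GV library 1, GV library 2 and the 4-cell library and rose by 3.16 (adjusted p = 0.039), and Gab1 and Zrsr1 rose with 0.263, 0.0585 and 7.13 FPKM for Gab1 and 0.0476, 0.190 and 4.16 FPKM for Zrsr1. Mest, in contrast, had 95.9, 50.4 and 3.68 FPKM and was lost without passing (adjusted p = 0.055). It lies in a run of 6 neighbouring lost genes on chromosome 6 (mm9 chr6:30589221-32538192), of which 2 fell.

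Metallothioneins, which bind zinc and copper, were among the widest differences. Mt1 and Mt2 had 1.91, 2.91 and 1010.5 FPKM for Mt1 and 0, 2.10 and 992 FPKM for Mt2 and rose by 8.23 and 9.14 (adjusted p = 0.025 and 0.041), while Mt4 had 9.58, 2.42 and 0 FPKM (adjusted p = 0.15, not passing). Gpx1, a peroxidase, and Prdx4, a peroxiredoxin of the endoplasmic reticulum, rose with 8.66, 7.79 and 191 FPKM for Gpx1 and 1.78, 3.72 and 107 FPKM for Prdx4. Txnip, an inhibitor of thioredoxin, fell by 6.15 with 525, 489 and 6.13 FPKM (adjusted p = 0.030). Among 13 tested p53-axis genes 3 rose, Sesn2, Sesn1 and Cdkn1a. Sesn2, a stress-induced regulator of mTORC1, had 3.35, 1.87 and 132 FPKM (adjusted p = 0.041).

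The highest value of the 4-cell library belonged to the short RNA gene Mir680-2, listed at 0 in both GV libraries and at 6733 FPKM in the embryo (1.53% of its sum). The sperm transcript Prm2 was measured in oocytes, with 7.37, 5.52 and 0 FPKM.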
